A study of Mus musculus with 21 samples.

Results

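The genes described here are 8 adhesion molecules of the immunoglobulin superfamily that act on the vessel wall, at cell junctions or in neural tissue: Vcam1, Icam1, Icam2, Jam2, Jam3, F11r, Alcam and Mcam. They were taken by gene symbol, and all 8 were found among the 24411 genes of each of the study's 2 tables. The study sequenced polyA RNA from the hippocampus of 1 hemisphere of perfused male wild-type mice, in 21 libraries, to ask how aged CD8+ T cells of the circulation act on the hippocampus and what their depletion does in old age. Recipients of transferred cells were B6.SJL-Ptprca Pepcb/BoyJ mice of 4 months, and both groups had their own CD8+ T cells removed by a CD8a antibody given on days -11 and -7. They then received, by tail vein, CD8+ T cells isolated from spleen and blood of C57BL/6J donors aged 22 to 28 months (aged T, n = 5) or 3 to 4 months (young T, n = 6). The other experiment, on depletion, used untransferred mice of 22 to 24 months, injected at intervals of 4 days with the CD8a antibody (n = 5) or with IgG2b from rat as isotype control (n = 5). The transfer experiment has no group without a transfer and none without the antibody, and the depletion experiment has no young or uninjected group.

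Leukocytes leave the blood in steps. They roll on selectins, are held firmly when their integrins bind VCAM1 and the ICAM proteins on the endothelium, and cross between endothelial cells at junctions that hold the JAM proteins. In the brain the endothelium is sealed by tight junctions and carries little VCAM1 or ICAM1 at rest, and both genes are induced by inflammatory cytokines. Several of these molecules also have roles outside the vessel, among them VCAM1 on astrocytes and neural stem cells and ALCAM on growing axons.

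Libraries held 12361933 to 15055422 reads in aged T recipients, 11232442 to 14911138 in young T recipients, 9957822 to 12136146 in the CD8a antibody group and 11103024 to 14375029 in the IgG2b group. All 8 markers of hippocampal neurons passed the filter on low values (a mean of at least 10) in both experiments. RNA of T cells was hardly read: Cd8a had 0 reads over the aged T libraries, which allows up to 0.0427 CPM (reads scaled to 1000000 per library), and 1 read over the young T libraries, and 14 reads over the CD8a antibody libraries and 10 over the IgG2b libraries. One library of the depletion experiment stood apart on principal component 1 of the genes that passed the filter. CD8a antibody replicate 5 scored 57.3, against -28.2 to -9.97 for the other 4 antibody libraries and -6.64 to 6.90 for the IgG2b libraries. The depletion differences of the 8 genes and the medians over lists are therefore given with and without this library, except where a covariate was used. So are the correlations among the 8 genes and with marker lists, but not the search for similar genes.

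Neither experiment gave a difference in any of the 8 genes that passed the test (limma with Benjamini-Hochberg adjustment over all genes tested, threshold 0.05). In the transfer experiment 0 of 8 were called, beside 0% of 14162 genes, and in the depletion experiment 0 of 8, beside 0.00717% of 13939 genes. At an unadjusted limma p under 0.05 the counts were 0 of 8 in the transfer, beside 8.25% of all genes (4.29% in the higher direction), and 3 of 8 in the depletion, beside 8.47%. Of these 3, Mcam and F11r were higher with the CD8a antibody, beside 4.31% of all genes, and Alcam was lower, beside 4.15%. edgeR, DESeq2 and limma-voom on the recovered reads also called 0 of 8 in each experiment, beside 0.00717%, 0.656% and 0.00717% of all genes in the depletion and 0% by each in the transfer. At an unadjusted p under 0.05 they took 3 of 8 in the depletion, beside 8.97%, 8.19% and 8.48% of all genes, and 0, 1 (F11r) and 0 of 8 in the transfer, beside 8.88%, 8.07% and 8.28%. Exact permutation tests took 3 of 8 in the depletion, beside 8.55%, and 0 of 8 in the transfer, beside 7.71%. The unadjusted limma count moved when 1 library was left out, over 2 to 4 of 8 in the depletion and 0 to 2 of 8 in the transfer. With the endothelial marker level as a covariate it was 2 of 8 in the depletion (Mcam and Alcam) and 2 of 8 in the transfer (F11r and Jam3). In bulk tissue, fewer cells of a type and less RNA per cell cannot be told apart. All differences below are on the log2(normalized count + 1) scale, and a normalized count is a read count divided by 1 scaling factor per library.

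Levels per length of exon, in RPKM (reads per kilobase of exon and 1000000 reads), put Alcam first in each group. It averaged 17.8 in recipients of aged T and 19.8 in those of young T cells, and 15.8 with the CD8a antibody and 19.3 with IgG2b. Jam3 and Jam2 followed, at 9.08 to 10.9 with aged T and 9.18 to 9.83 with young T cells, then Mcam at 6.36 and 6.08. F11r and Vcam1 came next at 4.88 and 4.57 in aged T recipients, and 3.96 and 4.73 in young T recipients. Icam2 (0.949 in aged T, 0.827 in young T) and Icam1 (0.495 in aged T, 0.678 in young T) closed the order. In the depletion experiment Jam3 averaged 11.5 with the CD8a antibody and 10.2 with IgG2b, Jam2 7.46 and 6.62, Mcam 6.03 and 4.06, F11r 4.40 and 3.31, Vcam1 3.51 and 2.96, Icam2 0.852 and 0.662, and Icam1 0.812 and 0.607. Libraries of neighbouring genes in this order overlapped, except between Vcam1 or F11r and Icam2 in each group, between Alcam and the next gene in all groups but the CD8a antibody group, and between Jam3 and Jam2 in both depletion groups. Alcam stood at percentiles 75.8 to 81.4 of the tested genes in the 4 groups, and Icam1 at 8.26 to 12.3.

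**Figure D1:**
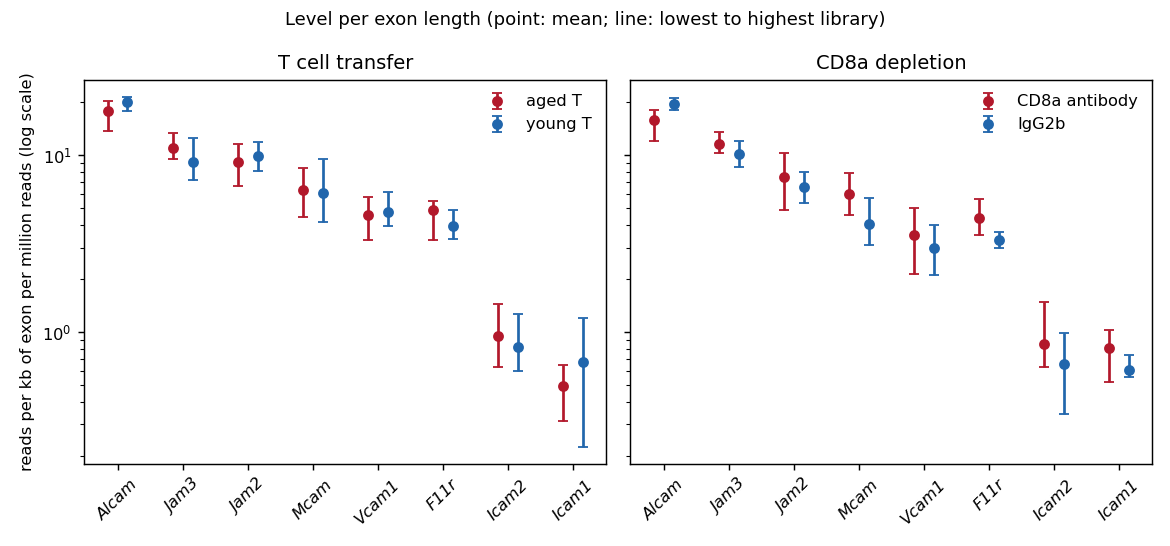
Level of each of the 8 genes per length of exon (log axis, RPKM) in aged T and young T recipients and in CD8a antibody and IgG2b mice. Points are group means and lines run from the lowest to the highest library; Alcam has the highest mean and Icam1 the lowest in all 4 groups, with a gap between Icam2 and the 6 genes above it.

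Mcam, also known as CD146, is a glycoprotein of endothelium, pericytes and smooth muscle. It lies on chromosome 9, 44134658 to 44142727 of mm10 on the plus strand. Its normalized counts with the CD8a antibody were 315.0, 211.7, 248.8, 241.3 and 183.3, against 225.3, 161.7, 144.2, 154.2 and 123.4 with IgG2b. Each of the 5 antibody libraries exceeded the median of IgG2b, and the groups overlapped only through IgG2b replicate 1, which exceeded antibody replicates 2 and 5. The mean was 240.0 ± 49.3 with the antibody and 161.8 ± 38.3 with IgG2b (SD, n = 5 each). This gave a log2 difference of 0.57, with a standard error of 0.18 and a 95% interval of 0.19 to 0.95; errors of log2 differences below are standard errors. Its limma p was 0.005897, smaller than for any other member, and 0.3558 after adjustment. An exact two-sided permutation test over libraries gave 0.02381. Without CD8a antibody replicate 5 the log2 difference was 0.66 (adjusted p = 0.1237). Mcam varied with oligodendrocyte (r = 0.744 over 10 libraries), microglia (0.729) and choroid plexus markers (0.696). These had a positive log2 difference in 7 of 7 (median 0.41), 8 of 8 (median 0.28) and 10 of 10 (median 0.48), none of them called. The part of the oligodendrocyte and microglia markers in the Mcam difference was not tested, and a fit with the choroid plexus level is given below. In the authors' deposited table the log2 difference, with its sign turned to antibody over IgG2b, was 0.57 and the adjusted p 0.1571. In the transfer experiment Mcam had 328.1, 375.9, 262.3, 209.9 and 270.9 in aged T libraries, against 186.5 (lowest), 244.1 (median) and 421.5 (highest) in young T libraries. The aged T libraries lay inside the range of the young T libraries, and the log2 difference was 0.10 ± 0.20 (adjusted p = 0.9124).

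F11r encodes JAM-A, a tight junction protein of endothelium and epithelium that is also carried by platelets and leukocytes. It lies on chromosome 1, 171437561 to 171464593 of mm10 on the plus strand. With the CD8a antibody its normalized counts were 179.7, 121.5, 159.3, 124.0 and 111.7, against 115.7, 112.4, 93.8, 104.8 and 98.8 with IgG2b. Again the 5 antibody libraries exceeded the median of IgG2b, with replicate 5 below the 2 highest IgG2b libraries. The mean was 139.2 ± 28.9 with the antibody and 105.1 ± 9.14 with IgG2b (SD, n = 5 each), and the log2 difference was 0.38 ± 0.16 (95% interval 0.05 to 0.72, adjusted p = 0.5222). The exact permutation p was 0.02381, and without CD8a antibody replicate 5 the log2 difference was 0.46 (adjusted p = 0.2133). Its unadjusted limma p of 0.02878 lay above 0.05 without antibody replicate 1 (0.0896) or 3 (0.07515) and without IgG2b replicate 3 (0.06745) or 5 (0.05681). In aged T recipients F11r had 192.9, 174.6, 204.9, 123.7 and 188.4, against 123.1 (lowest), 138.0 (median) and 173.5 (highest) in young T recipients. Of the 5 aged T libraries 4 lay above every young T library, and replicate 4 lay near the lowest of them. The log2 difference was 0.29 ± 0.14 (95% interval -0.01 to 0.60, adjusted p = 0.6002), and 0.41 without aged T replicate 4 (adjusted p = 0.3509).

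The bases before the F11r start are shown because F11r gave a positive difference in both experiments and most of its window could be printed. Those before the Icam1 start are shown because Icam1 is the best known cytokine-induced gene of the 8. Both come from RefSeq promoter windows on GRCm38.p6, the plus strand, 5′ to 3′, in which the 250 bases before the RefSeq start were searched. For F11r the first 224 of these are printed, since GENCODE places a start further upstream, and all its matches lie in them. Capitals mark matches on either strand to 5 short motifs: GGAAATTCC (NF-kappaB type), TTCNNNGAA (STAT type), GGGCGG (GC box), CCAAT and TATAAA. No 2 matches overlapped.
F11r, chr1:171437311-171437534: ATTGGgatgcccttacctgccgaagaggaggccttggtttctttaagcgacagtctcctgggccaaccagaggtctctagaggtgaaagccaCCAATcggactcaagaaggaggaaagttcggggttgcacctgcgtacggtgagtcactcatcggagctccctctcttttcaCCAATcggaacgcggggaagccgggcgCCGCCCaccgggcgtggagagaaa
Icam1, chr9:21015690-21015939: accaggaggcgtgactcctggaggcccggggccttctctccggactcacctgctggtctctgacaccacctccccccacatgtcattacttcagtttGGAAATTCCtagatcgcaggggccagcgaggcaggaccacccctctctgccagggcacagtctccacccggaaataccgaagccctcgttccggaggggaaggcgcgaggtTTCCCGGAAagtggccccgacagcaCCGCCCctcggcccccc
The F11r window held 3 CCAAT matches and 1 GC box. The Icam1 window held GGAAATTCC 153 to 145 bases before the start, TTCNNNGAA 42 to 34 bases before it and a GC box 17 to 12 bases before it. Among 32851 RefSeq windows of 250 bases, 0.286% held GGAAATTCC, 7.02% TTCNNNGAA, 32.7% GGGCGG, 33.8% CCAAT and 12.4% TATAAA. A match is a run of letters and no measure of binding. Of the 8 genes 4 had a window in the RefSeq table, the others being Alcam and Mcam. Only 0 (Alcam) and 61 (Mcam) of their 250 bases lay before both starts, so these are not printed. The Alcam window held 2 GC boxes and 1 CCAAT match, and the Mcam window 5 GC boxes.

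Alcam encodes CD166, which binds itself on neighbouring cells and CD6 on T cells, and which also guides axons. It lies on chromosome 16, 52248996 to 52453081 of mm10 on the minus strand. Its normalized counts with the CD8a antibody were 1315, 1421, 1495, 1430 and 1020, against 1665, 1532, 1650, 1794 and 1553 with IgG2b. Every antibody library lay below every IgG2b library, so that Alcam was 1 of 8 whose groups did not overlap, beside 2.05% of all genes tested (1.27% in the lower direction and 0.782% in the higher). The mean was 1336 ± 188.0 with the antibody and 1639 ± 104.3 with IgG2b (SD, n = 5 each), which put the log2 difference at -0.30 ± 0.11 (95% interval -0.55 to -0.06, adjusted p = 0.4571). The exact permutation p was 0.007937, the smallest that 5 against 5 can give. Without CD8a antibody replicate 5, which had the lowest count, the log2 difference was -0.21 (adjusted p = 0.2747). In aged T recipients Alcam had 1891, 1841, 1569, 2011 and 1327, against 1747 (lowest), 1923 (median) and 2054 (highest) in young T recipients. Aged T replicates 3 and 5 lay below the young T range and the other 3 inside it, and the log2 difference was -0.16 ± 0.10 (adjusted p = 0.6481), or -0.07 without aged T replicate 5. In the transfer 0 of 8 genes had groups that did not overlap, beside 0.699% of all genes tested.

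**Figure D2:**
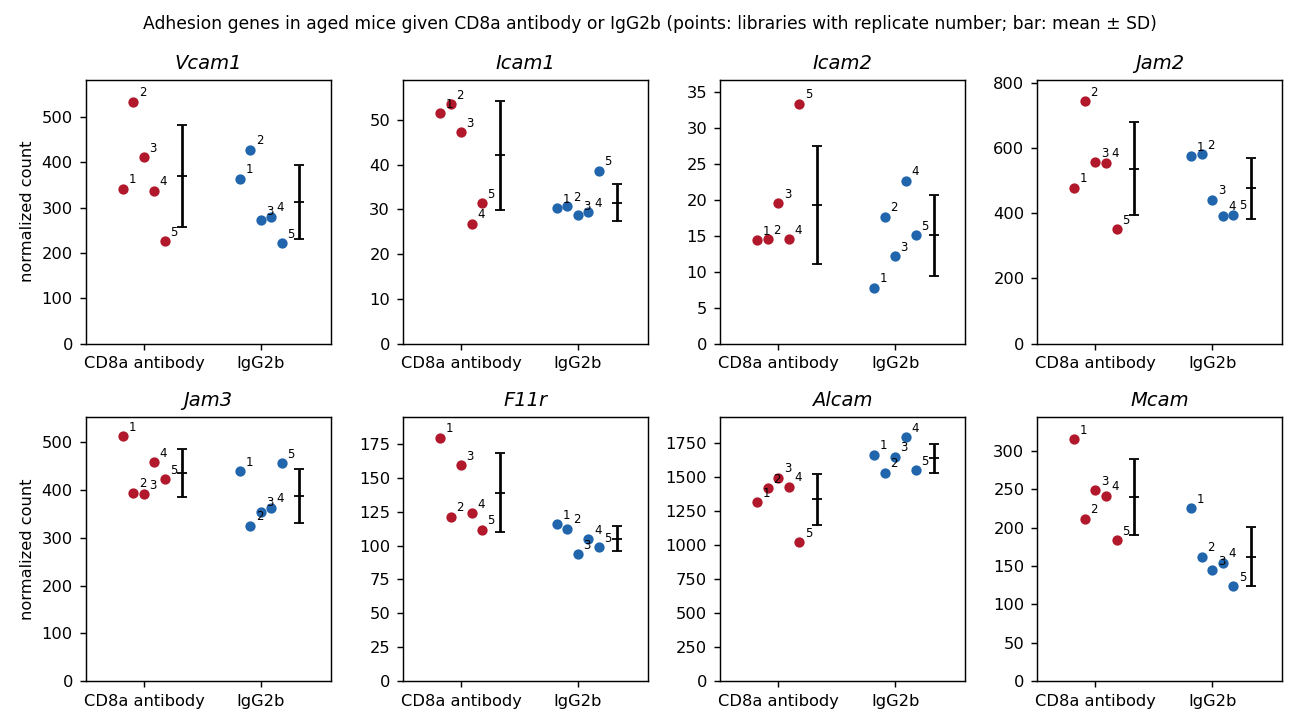
Normalized counts (vertical axes from 0) of the 8 genes in hippocampus of 22- to 24-month-old mice given the CD8a antibody (left) or IgG2b (right), 5 libraries each, with replicate numbers. Bars give mean ± SD; the Alcam libraries do not overlap between groups, and the Mcam groups overlap only through IgG2b replicate 1.

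Vcam1 encodes the endothelial ligand of the integrin chain Itga4, and astrocytes and neural stem cells carry it too. It lies on chromosome 3, 116110020 to 116129688 of mm10 on the minus strand. With the CD8a antibody it had 341.4, 533.7, 411.2, 337.4 and 225.4, against 364.3, 427.5, 272.7, 280.0 and 221.1 with IgG2b. The groups overlapped over most of their range, and antibody replicate 2 was the highest library of the 10. The log2 difference was 0.22 ± 0.22 (95% interval -0.24 to 0.69, adjusted p = 0.8105) and 0.39 without CD8a antibody replicate 5 (adjusted p = 0.3945). It was 0.08 without antibody replicate 2, 0.11 without IgG2b replicate 5 and 0.34 without IgG2b replicate 2. In aged T recipients Vcam1 had 685.5, 528.3, 628.1, 408.6 and 508.2, against 484.9 (lowest), 543.1 (median) and 727.1 (highest) in young T recipients. Aged T replicate 4 lay below the young T range and the other aged T libraries inside it. The log2 difference was -0.06 ± 0.13 (95% interval -0.34 to 0.22, adjusted p = 0.9223). Its sign turned without aged T replicate 4 (0.05) and without young T replicate 3 (0.02).

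Icam1 encodes the inducible ligand of the leukocyte integrins LFA-1 and Mac-1. It lies on chromosome 9, 21015940 to 21028814 of mm10 on the plus strand, with 511 exonic bases shared with the antisense gene Gm47079; whether counting used strand is not given in the sources used here. It was read 13 to 72 times per library in the transfer and 24 to 48 times in the depletion, so its values carry wide counting error. In aged T recipients the normalized counts were 27.4, 30.3, 19.1, 39.6 and 30.8, against 13.4 (lowest), 39.2 (median) and 69.9 (highest) in young T recipients. The young T libraries formed a high set (replicates 1, 3 and 6, at 69.9, 62.6 and 56.5) and a low set (replicates 2, 4 and 5, at 14.7, 13.4 and 21.8), and aged T replicate 3 lay in the range of the low set and the other 4 between the sets. The log2 difference was -0.16 ± 0.43 (95% interval -1.07 to 0.75, adjusted p = 0.9327). The count models put it lower, at -0.44 with edgeR and -0.43 with DESeq2 (adjusted p = 0.7585 and 0.887). Its sign turned without young T replicate 1 (0.06) and without young T replicate 3 (0.03), and it was -0.40 without young T replicate 4.

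In the depletion experiment Icam1 had 51.5, 53.5, 47.3, 26.8 and 31.4 with the CD8a antibody, against 30.2, 30.7, 28.7, 29.3 and 38.6 with IgG2b. Antibody replicates 1 to 3 lay above every IgG2b library, and replicate 4 below all of them. The log2 difference was 0.36 ± 0.24 (95% interval -0.15 to 0.88, adjusted p = 0.7106), and 0.45 without CD8a antibody replicate 5. Icam2, the constitutive LFA-1 ligand of endothelium and platelets, lies on chromosome 11, 106377656 to 106388139 on the minus strand, and was read 9 to 34 times per library. It had 14.4, 14.5, 19.5, 14.5 and 33.3 with the CD8a antibody, against 7.77, 17.7, 12.2, 22.6 and 15.03 with IgG2b, a log2 difference of 0.34 ± 0.35 (adjusted p = 0.8273). Antibody replicate 5 held the highest value, and without it the log2 difference was 0.13; it was 0.14 without IgG2b replicate 1. In aged T recipients Icam2 had 23.6, 16.0, 38.3, 19.3 and 26.3, against 15.8 (lowest), 17.4 (median) and 32.1 (highest) in young T recipients, and the log2 difference was 0.20 ± 0.29 (adjusted p = 0.8561). It was 0.03 without aged T replicate 3 and 0.33 without aged T replicate 2.

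Jam2 and Jam3 encode JAM-B and JAM-C, junction proteins that bind each other. Jam2 lies on chromosome 16, 84774123 to 84826380 on the plus strand, and Jam3 on chromosome 9, 27097384 to 27155421 on the minus strand, where 1159 exonic bases are shared with the antisense gene Gm48796. Jam3 in aged T recipients had 411.3, 570.2, 503.2, 427.9 and 464.7, against 313.9 (lowest), 384.8 (median) and 529.3 (highest) in young T recipients. All 5 aged T libraries lay above the young T median, and the log2 difference was 0.27 ± 0.13 (95% interval -0.01 to 0.55, adjusted p = 0.6002). With the CD8a antibody Jam3 had 512.6, 394.4, 391.6, 459.2 and 423.4, against 440.2, 325.3, 355.2, 363.0 and 456.2 with IgG2b, and the log2 difference was 0.17 ± 0.13 (adjusted p = 0.7357), or 0.18 without CD8a antibody replicate 5. Jam2 had 797.1, 746.6, 975.9, 568.9 and 650.4 in aged T recipients, against 687.6 (lowest), 769.9 (median) and 947.9 (highest) in young T recipients, a log2 difference of -0.12 ± 0.13 (adjusted p = 0.7961). It ran from -0.22 without aged T replicate 3 to -0.03 without aged T replicate 4. It had 477.9, 743.2, 555.1, 554.1 and 349.9 with the CD8a antibody, against 574.0, 579.9, 440.3, 392.3 and 395.0 with IgG2b, a log2 difference of 0.15 ± 0.18 (adjusted p = 0.8565). Without CD8a antibody replicate 5 it was 0.29 (adjusted p = 0.4292), and without antibody replicate 2 it was 0.02. The Jam2 groups overlapped in both experiments, and antibody replicates 2 and 5 were the highest and the lowest of the 10 depletion libraries.

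**Figure D3:**
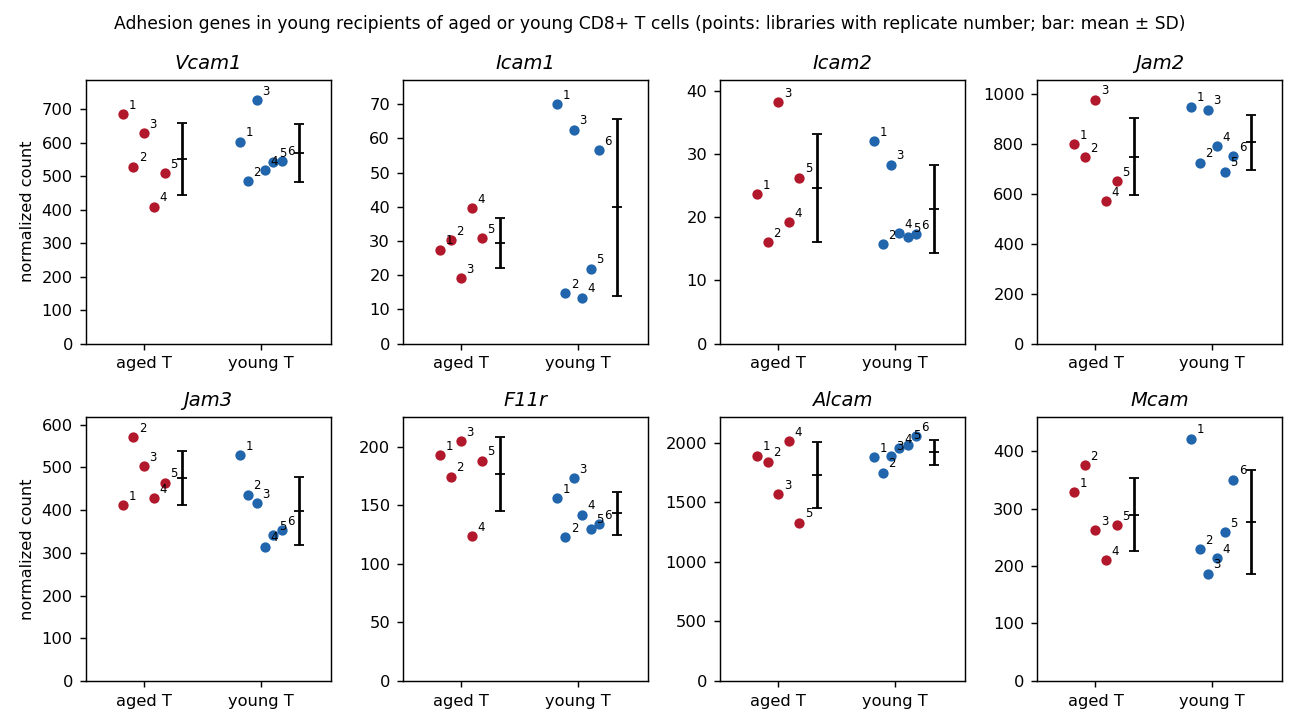
Normalized counts (vertical axes from 0) of the 8 genes in hippocampus of 4-month-old recipients of aged T (left, 5 libraries) or young T cells (right, 6 libraries), with replicate numbers. Bars give mean ± SD; the groups overlap for every gene, and the Icam1 values of the young T libraries form a high and a low set of 3.

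Over the 8 genes, 7 of 8 had a positive log2 difference in the depletion experiment, beside 49.6% of all genes tested, with a median of 0.28 (0.34 without CD8a antibody replicate 5) against -0.002 over all genes. With the endothelial covariate 5 of 8 were positive, with a median of 0.14. In the transfer 4 of 8 were positive, beside 49%, with a median of 0.02, and with that covariate 6 of 8, with a median of 0.15. The differences of F11r, Jam3, Icam2 and Mcam were positive and that of Alcam negative in both experiments, though in the transfer that of Mcam was -0.01 when either aged T replicate 2 or replicate 3 of young T was left out. The 2 experiments were normalized apart, and the difference between their effects was not tested.

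**Figure D4:**
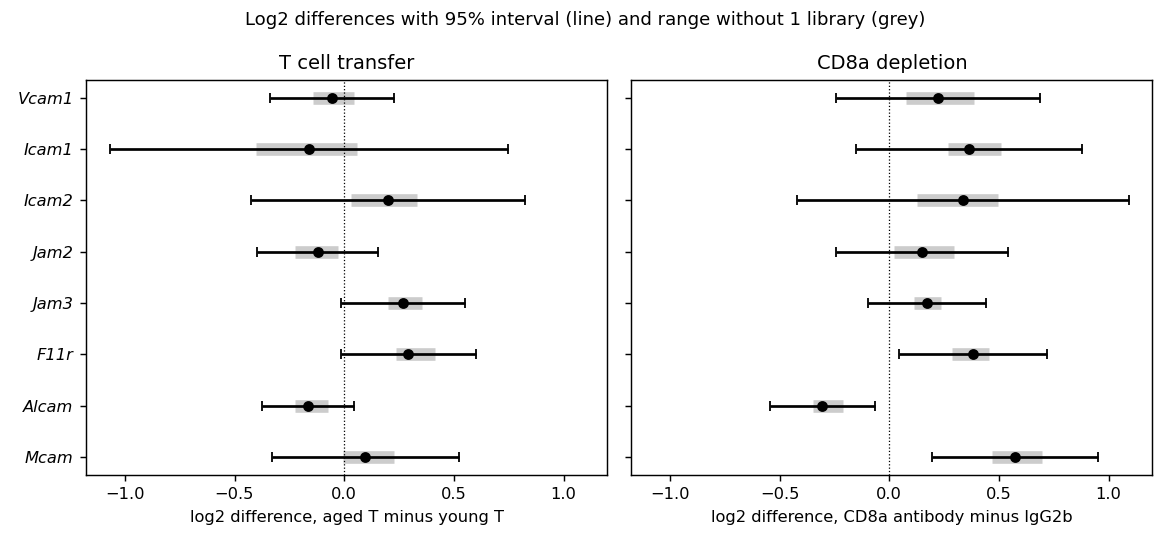
Log2 difference of each gene (horizontal axis), aged T minus young T on the left and CD8a antibody minus IgG2b on the right, with its 95% interval (line) and the range when 1 library at a time was left out (grey band). In the depletion experiment the intervals of Mcam, F11r and Alcam exclude 0, and in the transfer experiment every interval includes it.

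No marker of another cell type was called in the depletion experiment, and most had positive log2 differences. Oligodendrocyte markers were positive in 7 of 7 (median 0.41; summed normalized counts of 48680 to 93870 in the antibody group and 46440 to 59700 in the IgG2b group), and without CD8a antibody replicate 5 the median was 0.46. Endothelial markers were positive in 16 of 18 (median 0.22; sums of 5057 to 7607 with the antibody and 5089 to 5446 with IgG2b). Their median was 0.39 without antibody replicate 5 and 0.11 without antibody replicate 2. Pericyte and smooth muscle markers were positive in 9 of 12 (median 0.31; sums of 1770 to 2808 in the antibody group and 1619 to 1982 in the IgG2b group), with 0.38 without antibody replicate 5 and 0.18 without antibody replicate 3. Microglia markers were positive in 8 of 8 (median 0.28; 0.31 without antibody replicate 5 and 0.18 without replicate 1). Astrocyte markers were positive in 6 of 8 (median 0.13; 0.28 without antibody replicate 5 and 0.03 without replicate 2), and fibroblast markers in 9 of 10 (median 0.51; 0.66 without antibody replicate 5 and 0.21 without replicate 3).

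Choroid plexus markers depended on single libraries. They were positive in 10 of 10 (median 0.48), with sums of 839.9 to 32450 in the antibody group and 2046 to 27480 in the IgG2b group, and CD8a antibody replicate 5 had the lowest sum. The median was 1.21 without that library and 0.09, with 6 of 10 positive, without antibody replicate 3. With the endothelial covariate 0 of 10 choroid plexus markers were positive (median -1.003). No marker of these lists was at 0 in all libraries.

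Levels of 2 of these lists were used as covariates, in fits of all libraries that were not repeated without CD8a antibody replicate 5. With the endothelial markers the depletion log2 differences were 0.52 for Mcam, 0.34 for F11r and -0.41 for Alcam (adjusted p = 0.4041, 0.5088 and 0.279), those of Vcam1 and Jam2 turned to -0.18 each, and that of Icam1 was 0.06. With the choroid plexus markers they were 0.49 for Mcam, 0.33 for F11r and -0.35 for Alcam (adjusted p = 0.2775, 0.4555 and 0.2577), 0.10 for Vcam1 and 0.06 for Jam2. The part of the other lists in the differences was not tested.

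In the transfer experiment pericyte and smooth muscle markers were lower in aged T recipients in 13 of 13 (median -0.41; sums of 1983 to 3253 with aged T and 2427 to 4730 with young T cells), none of them called. Endothelial markers were positive in 5 of 18 (median -0.15; 6379 to 8618 with aged T and 7073 to 10410 with young T cells). The endothelial median was -0.03 without young T replicate 1. Oligodendrocyte markers were positive in 7 of 7 (median 0.34; 49350 to 89450 with aged T and 42610 to 75060 with young T cells). With the endothelial covariate the log2 difference was 0.40 for F11r (adjusted p = 0.2872) and 0.32 for Jam3 (adjusted p = 0.3241), and those of Vcam1 and Icam1 turned to 0.06 and 0.09. Fibroblast markers were positive in 1 of 10 (median -0.70), choroid plexus markers in 10 of 10 (median 0.38), microglia and astrocyte markers in 5 of 8 each (medians 0.05 and 0.05) and hippocampal neuron markers in 3 of 8 (median -0.02). The choroid plexus count rested on single libraries: it was 3 of 10 (median -0.07) without aged T replicate 1 and 6 of 10 (median 0.06) without aged T replicate 5. The microglia, astrocyte and neuron medians changed sign without 1 library, over -0.0025 to 0.09, -0.07 to 0.16 and -0.10 to 0.05. In the depletion 7 of 8 neuron markers were positive (median 0.18), and 6 of 8 without CD8a antibody replicate 5 (median 0.18). Of 10 T cell markers 1, Lck, was tested, at -0.01 in the transfer and 0.37 in the depletion (0.23 without CD8a antibody replicate 5). The part of markers other than the endothelial and choroid plexus lists was not tested.

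The deviations of libraries from their group means described which of the 8 genes varied together. Vcam1 and Jam2 had a Pearson r of 0.831 over 11 transfer libraries, 0.949 over 10 depletion libraries and 0.914 without CD8a antibody replicate 5. For F11r and Vcam1 the r was 0.889 in the transfer, 0.370 in the depletion and 0.070 without that library. For F11r and Mcam it was 0.205 in the transfer, 0.799 in the depletion and 0.735 without that library.

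Against the marker lists, Jam2 had an r with astrocyte markers of 0.867 in the transfer, 0.943 in the depletion and 0.897 without CD8a antibody replicate 5. With endothelial markers Jam2 had 0.801, 0.742 and 0.640, in the same order. Vcam1 had 0.757, 0.898 and 0.826 with astrocyte markers and 0.855, 0.756 and 0.662 with endothelial markers. By Spearman rank in the depletion, Jam2 had 0.952 with astrocyte and 0.721 with endothelial markers, and 0.717 with each without that library. Vcam1 had 0.927 and 0.806 by rank, and 0.617 and 0.800 without that library. Jam3 had 0.647, 0.618 and 0.759 with oligodendrocyte markers. Mcam had 0.722, 0.744 and 0.652 with oligodendrocyte markers, but other lists came as high. In the transfer these were pericyte and smooth muscle (0.746) and fibroblast markers (0.703). In the depletion they were microglia markers (0.729, and 0.630 without CD8a antibody replicate 5) and choroid plexus markers (0.696 and 0.579). With pericyte and smooth muscle markers Mcam had 0.224 in the depletion and 0.139 without that library. With endothelial markers it had 0.536 in the transfer, 0.141 in the depletion and -0.116 without that library. Icam2 had 0.897 with astrocyte, 0.881 with microglia and 0.721 with endothelial markers in the transfer. In the depletion these were -0.614, -0.401 and -0.396, and without the library that stood apart -0.313, -0.014 and -0.128. These values describe libraries that share dissection, depth and cell makeup, and carry no test.

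**Figure D5:**
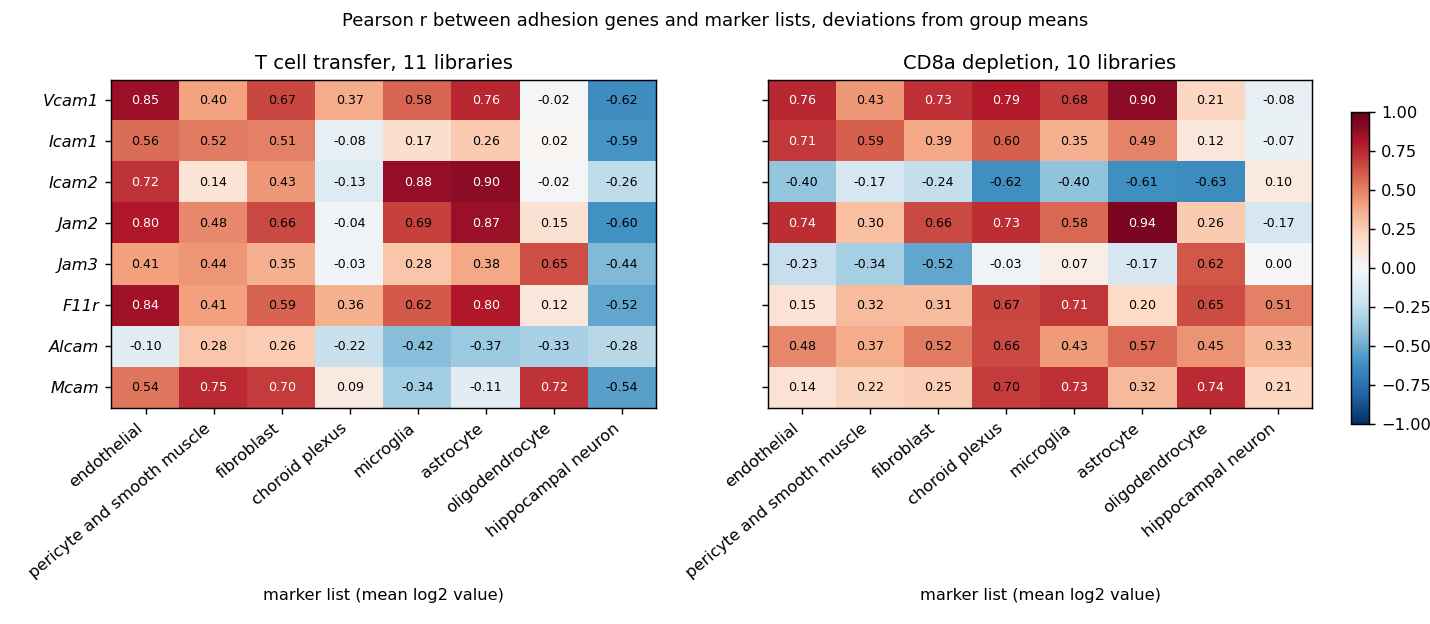
Pearson r between each gene and the mean log2 value of 8 marker lists, computed on deviations from group means over 11 transfer libraries (left) and 10 depletion libraries (right). Colours run from -1 (blue) to 1 (red); Jam2 and Vcam1 have their highest depletion values with the astrocyte list, at 0.943 and 0.898.

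Other genes were searched where their mean reached 50 normalized counts in both tables (11688 genes for all but Icam1 and Icam2, 11689 for these). The search used all libraries and was not repeated without CD8a antibody replicate 5. Genes whose deviations were most like a given gene's, by the smaller of its 2 Pearson values, were as follows. For Vcam1 they were Ptgr2 (0.877), 5930403L14Rik (0.866) and Ctnna1 (0.858), and for Jam2 Epb4.1l2 (0.901) and Tmem47 (0.886). For Mcam they were Myo1d (0.872), Litaf (0.869) and Bche (0.846), and for Alcam Rab3c (0.905), Cds2 (0.902) and Ildr2 (0.900). For Jam3 they were Elovl1 (0.765), Tmem63a (0.717) and Cldnd1 (0.681), and for F11r Cand2 (0.755), Tln1 (0.721) and Steap3 (0.708). For the weakly read Icam1 they were Eif4e2 (0.745), Parp9 (0.700) and Ets1 (0.682), and for Icam2 A430005L14Rik (0.739), Sec13 (0.737) and Irf3 (0.719).

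The other genes of the adhesion cascade were taken from 5 lists, and limma called 0 of their tested genes in either experiment. The integrin chains that bind the VCAM, ICAM and JAM proteins had a positive log2 difference in 4 of 5 in the depletion (median 0.20; 0.32 without CD8a antibody replicate 5 and 0.09, with 2 of 5, without replicate 1). In the transfer they were positive in 1 of 5 (median -0.02), and in 3 of 5 when aged T replicate 4, aged T replicate 5 or young T replicate 3 was left out. Itgax, of dendritic cells and some microglia, had 1.31 ± 0.55 with the CD8a antibody over IgG2b (adjusted p = 0.5317). It averaged 16.3 ± 9.55 with the antibody and 5.73 ± 3.44 with IgG2b (SD). Itgax thus passed the filter of 10 only through the antibody group, and it counts among the 4 of 5. Itgam, of microglia, had 0.51 ± 0.23 in the depletion. Itga4, the partner of Vcam1, had -0.48 ± 0.22 in the depletion and -0.46 ± 0.15 in the transfer (adjusted p = 0.5678 and 0.6002). Itga4 averaged 284.0 ± 78.1 with the antibody and 389.8 ± 84.6 with IgG2b, and 380.7 ± 92.4 with aged T and 519.1 ± 92.8 with young T cells. Itgb2 (0.23) and Itgal (-0.64 ± 0.65) were the other integrin genes named in the transfer, neither passing. Itgal averaged 7.43 ± 4.99 with aged T and 12.3 ± 7.35 with young T cells (SD), from 38 and 74 reads. Itgal thus passed the filter of 10 only through the young T group, and it counts among the 5 tested. Selectins and their ligands were positive in 4 of 6 in each experiment (medians 0.11 in the depletion, 0.14 without CD8a antibody replicate 5, and 0.10 in the transfer), with Selplg at 0.22 in the depletion and 0.23 in the transfer and Podxl at 0.34 and -0.28. Podxl2 had -0.08 and Cd34 -0.02 in the depletion, and 0.16 and -0.14 in the transfer; none of the 4 passed. The endothelial selectins Sele and Selp were below the filter in both: over the aged T libraries Sele had 2 reads and Selp 3, and over the young T libraries 0 and 1. Over the CD8a antibody libraries Sele had 0 reads and Selp 4, and over the IgG2b libraries 6 and 0.

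Other junction and transmigration genes were positive in 9 of 13 in the depletion (median 0.10; 0.20 without CD8a antibody replicate 5 and 0.25 without IgG2b replicate 1). In the transfer they were positive in 5 of 13 (median -0.09), and in 2 of 13 (median -0.17) without aged T replicate 1. Cldn5, the main claudin of brain endothelium, had 0.31 ± 0.16 in the depletion and 0.11 ± 0.22 in the transfer. Tjp1, a scaffold of tight junctions, had -0.24 ± 0.09 and Cdh5, the cadherin of endothelial junctions, -0.33 ± 0.18 in the transfer, and Cd99l2 -0.21 and Cd47 -0.25 in the depletion. Kin and partners of ICAM and ALCAM proteins were positive in 4 of 9 in the depletion (median -0.13; -0.03 without CD8a antibody replicate 5 and -0.21 without replicate 1) and in 1 of 9 in the transfer (median -0.19). The neuronal adhesion genes L1cam and Chl1 each had -0.46 in the depletion (SE 0.11 and 0.14, adjusted p = 0.2333 and 0.3409), with 0 of 5 antibody libraries above the IgG2b median for either. L1cam averaged 765 ± 82.4 with the antibody and 1057 ± 119.3 with IgG2b. It did not pass with limma but passed with DESeq2 in the depletion (log2 difference -0.47, DESeq2 adjusted p = 0.02063). Icam4 (0.63) and Bcam (0.35) were positive in the depletion, Icam4 (0.32) was positive in the transfer, and Ncam1 (-0.21) and Lama4 (-0.52) were negative there, none passing. In the transfer Icam4 averaged 11.9 ± 4.07 with aged T and 9.91 ± 5.15 with young T cells (SD). It thus passed the filter of 10 there only through the aged T group, and it is the 1 of 9 that was positive.

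Cytokine receptors, NF-kappaB genes and shedding proteases were positive in 10 of 14 in the depletion (median 0.13; 0.19 without CD8a antibody replicate 5 and 0.20 without replicate 4). In the transfer they were positive in 1 of 14 (median -0.14), and in 5 of 14 (median -0.06) without aged T replicate 4. In the depletion Nfkbie had 0.66 ± 0.25 and Rela, the main activating NF-kappaB subunit, 0.31 ± 0.12, each above the IgG2b median in 5 of 5 antibody libraries, while Nfkbia, an inhibitor of NF-kappaB that it also induces, had -0.33 ± 0.13 (adjusted p = 0.4889, 0.51 and 0.5193). The sheddase Adam10 had -0.12 there. Relb, a subunit of the alternative NF-kappaB pathway, had 0.46 ± 0.14 in the transfer, with 114.1 ± 17.0 with aged T and 82.0 ± 7.73 with young T cells (adjusted p = 0.6002). Irf1, induced by interferon, had -0.32 there and did not pass. The cytokines Tnf and Il1b were below the filter in both experiments.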

How the data were processed

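Hippocampal RNA of 21 libraries was analysed in 2 experiments, each from its own table and alone. STAR, RSEM, DESeq2 and the mm10 build are named, with no versions, per the submitters' processing notes. For the annotation and the strand setting of counting, the status is: not given in the sources used here. Per the file headers and the values, the deposited tables hold a normalized signal, reads of a gene over the size factor of its library. They also hold the authors' log2 fold change, their Wald score, and p-values, deposited as control over treated; the log2 fold changes printed here have their sign turned. Every value was a whole multiple of 1 step per library (relative tolerance 1e-06), so reads were recovered.

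Genes were tested with limma (version 3.58.1, in R 4.3.3) with a mean-variance trend and no covariate, on log2 of the normalized count plus 1, if their mean was at least 10, with Benjamini-Hochberg adjustment over all of them. It was used because the tables hold normalized counts, edgeR having been set for raw counts. Alternatives were edgeR 4.0.16, DESeq2 1.42.0 and limma-voom on the recovered reads, other pseudocounts (0.5 and 5), no filter or a filter of 50, TMM scaling, exact two-sided permutation tests, marker covariates, and each library left out. The fit was tested on simulated counts. Levels per kilobase used exon lengths of GENCODE genes, found for 95.76% of symbols. Limits on reads of 0 stand at 3 reads per group and cover counting error only.

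The 8 genes and 14 other lists were chosen with earlier results of these data known. From each list that is not a marker list, called genes were to be named, or else up to 2 per direction with the smallest p, as not passing, and for each of the 8 genes the 3 most similar. Some genes that this rule takes are not reported here. Each library is a separately named sample, but the labels do not say outright that each is 1 animal, so p-values measure the spread between these samples. Replicate numbers follow the order of the sample records and pair no samples.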

Additional observations from a re-analysis of the deposited data

Results flagged for a closer look

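In 2 of 32 groups examined, 1 library stood far from the other 4 or 5 by Dixon's criterion at 95%, and chance alone marks about 1 in 20 groups. Icam2 in CD8a antibody replicate 5 had a normalized count of 33.3, against 19.5 for the next highest antibody library; without it the log2 difference was 0.13, against 0.34 with it. Icam1 in IgG2b replicate 5 had 38.6, against 30.7 for the next highest IgG2b library; without it the log2 difference was 0.44, against 0.36 with it. Neither gene passed the test with or without the library.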

How the results depend on the processing

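For the 8 genes, 0 were called under every alternative run. Icam1 and Icam2 could not be fitted under the filter of 50. Without 1 library, the number of the 8 genes with a positive difference ran from 7 to 7 in the depletion and from 3 to 5 in the transfer, and their median from 0.23 to 0.35 and from -0.05 to 0.14. Under the other settings 5 to 7 were positive in the depletion and 4 to 6 in the transfer, leaving out the filter of 50, which kept 6 of the 8 genes, with 5 and 3 positive. In the depletion the Jam2 difference ran from 0.02 to 0.29 and that of Vcam1 from 0.08 to 0.39 without 1 library.

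With the endothelial covariate the log2 difference changed sign for Vcam1 (0.058) and Icam1 (0.090) in the transfer and for Vcam1 (-0.18), Jam2 (-0.18), Podxl2 (0.027), Cd34 (0.12) and Bcam (-0.013) in the depletion; the cause was not tested. Without 1 library the log2 difference ran from -0.14 to 0.046 for Vcam1, from -0.40 to 0.058 for Icam1, from -0.0058 to 0.23 for Mcam and from -0.048 to 0.25 for Cldn5 in the transfer, and from -0.085 to 0.048 for Cd34 and from -0.21 to 0.0099 for Adam10 in the depletion.

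Over all genes, the depletion count of 1 was 92 with DESeq2, 0 with no filter, 3 with the choroid plexus covariate and 0 with permutation tests, and ran from 0 to 25 without 1 library. L1cam passed in the depletion with DESeq2 (log2 difference -0.47, adjusted p = 0.02063) and with no other setting. No paired analysis was possible because replicate numbers in the labels pair no samples. Depth limits Icam1 and Icam2 most, at 9 to 72 reads per library.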
